A study of Macrostomum lignano with 16 samples.

Results

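Worms given a partner for the last 24 h of a period of isolation were compared with worms that stayed alone throughout, across all transcripts of the hermaphroditic flatworm Macrostomum lignano. The joined group held 4 libraries, each from a pool of whole adults kept alone and then put together with 1 other worm for the final 24 h. The isolated group held 4 libraries from pools of worms kept alone throughout the experiment. These are 8 of the 16 libraries in the study, and they were chosen by the sample labels and the matching column headers. The other 8 libraries came from worms kept in groups of 8 (octet, 4 libraries) or with 1 constant partner (paired, 4 libraries). All groups ran for 64 days and used adults of strain DV1, aged 66 to 69 days, fed with diatoms at the same temperature and light cycle. Each library is a pool, so the spread between libraries is a spread between pools and not between single worms.

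In this species every adult carries testes, ovaries and male and female copulatory organs. Partners mate reciprocally, pass sperm together with secretions of the prostate gland cells, and store received sperm in the female antrum. A worm kept alone has no mating partner, and the amount of tissue given to testis and ovary is known to shift with the number of potential mates. The joined group was set up to look at short-term responses to mating. In whole-worm RNA, fewer cells of a type and less RNA per cell cannot be told apart. The deposited table gives numbered transcripts of an assembly with no gene names, so members are described by number, and no role can be given to them. Numbers followed by a dot and a digit mark transcripts that share a number, and reads that match several such transcripts were divided by estimation.

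After 24 h with a partner no transcript passed the test across all 40265 transcripts with enough reads (limma-voom, adjusted p under 0.05, 0 called, 0%). The smallest adjusted p was 0.739. The test set each difference against the spread between pools within groups, estimated from all 16 libraries and so also from octet and paired worms. An unadjusted p under 0.05 was found in 2371 transcripts, 5.89% of those tested, and the joined level was above the isolated level in 1201 of them (2.98%) and below it in 1170 (2.91%). Limma-trend also called 0 and had 2312 transcripts at an unadjusted p under 0.05. For comparison, the same fit called 1843 transcripts (4.58%) between joined and paired worms and 728 (1.81%) between paired and isolated worms. Those comparisons share the joined or the isolated libraries with the one described here.

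For most of the transcripts kept by the filter on low counts, the interval of the difference was within 2-fold. The 95% interval of the fold change lay wholly within 2-fold in either direction for 31740 of the 40265 transcripts (78.8%), and within 1.5-fold for 13724 (34.1%). With no filter it lay within 2-fold for 32547 of 74197 transcripts (43.9%). With limma-trend, which used a pseudocount of 2, it did so for 39936 of 40265 (99.2%), so the share depends on the model. These intervals are per transcript and not adjusted for their number. The tested transcripts were split by mean level over all 16 libraries into 3 classes of equal size. In the upper class, with a mean of at least 3.05 log2 CPM (read counts scaled to library size, on a log2 scale), 97.1% were bounded within 2-fold and 69.6% within 1.5-fold. In the middle class 89.8% were bounded within 2-fold, and in the lower class 49.6%. The middle 90% of log2 fold changes ran from -0.44 to 0.54 over all transcripts and from -0.35 to 0.33 in the upper class. A difference above 2-fold was fitted in 264 transcripts higher and 127 lower in joined worms, of which 243 and 115 belonged to the lower class. Fitted differences above 4-fold numbered 22, of which 21 were in the lower class, and 16 of the 22 were transcripts that share a number, against 31.1% of all tested transcripts.

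**Figure D1:**
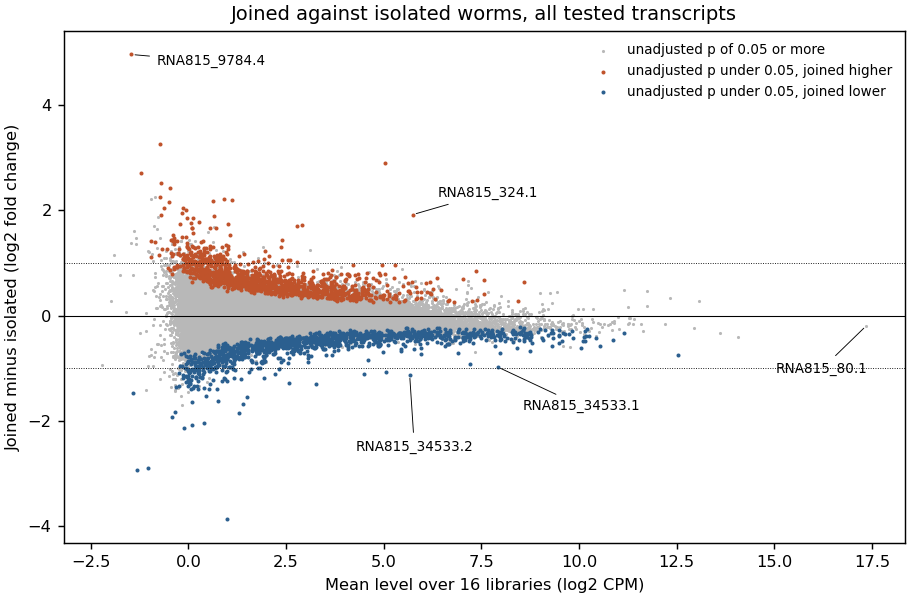
Each point is 1 of the 40265 tested transcripts, with its mean log2 CPM over the 16 libraries on the horizontal axis and its log2 fold change, joined minus isolated, on the vertical axis. Dotted lines mark 2-fold, colours mark an unadjusted p under 0.05, and no transcript passed the adjusted threshold. Differences beyond 2-fold lie almost wholly at low levels, with RNA815_324.1 and RNA815_34533.2 among the exceptions.

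The split by direction differed between these classes. An unadjusted p under 0.05 was found in 6.94% of the 13422 upper-class transcripts, 5.18% of the middle class and 5.55% of the lower class. Of the upper-class transcripts with an unadjusted p under 0.05, 65.2% were lower in joined worms, with 607 transcripts. In the middle class 41.7% were lower and in the lower class 36.6%, with 290 and 273 transcripts. The median log2 fold change was -0.04 in the upper, 0.02 in the middle and 0.06 in the lower class. In the upper class 68.5% were lower with median-ratio scaling factors and 64.7% with upper-quartile factors. Without isolated replicate 3, 64.8% of such transcripts in the upper class were lower, 431 among the 13422 of that class. In the lower class 268 of 13165 were then higher and 263 lower. All 4 joined libraries lay beyond all 4 isolated libraries in 1626 transcripts (4.04%), above them in 682 (1.69%) and below them in 944 (2.34%). Of the 13422 upper-class transcripts 175 lay above and 588 below. Transcripts measured in the same libraries are not independent of each other, and the split by direction was not tested.

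The 8 libraries did not form separate joined and isolated clusters. The distance between 2 libraries was taken as the median absolute difference in log2 CPM over the 13744 transcripts with a mean of at least 3 log2 CPM. It was 0.15 to 0.23 among the 6 pairs of joined libraries and 0.17 to 0.28 among the 6 pairs of isolated libraries, with 0.17 to 0.35 among the 16 pairs of a joined and an isolated library. Isolated replicate 3 stood apart, at 0.25 to 0.35 from every other library. Without it the isolated pairs lay at a median of 0.17 and the mixed pairs at 0.17 to 0.25. The median over mixed pairs was then 0.20, against 0.21 among joined pairs.

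**Figure D2:**
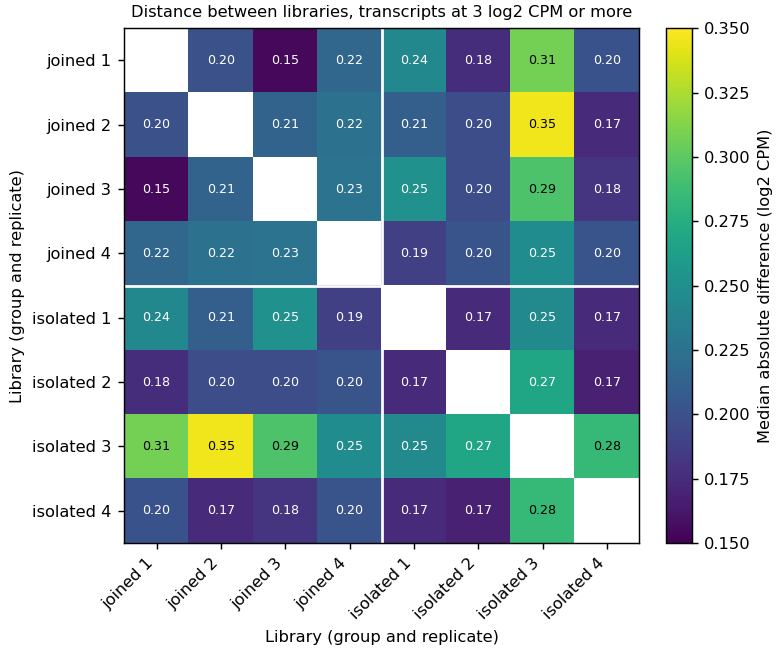
The grid gives the median absolute difference in log2 CPM for each pair of the 8 libraries over transcripts with a mean of at least 3 log2 CPM, with joined libraries before isolated ones. Isolated replicate 3 lies at 0.25 to 0.35 from every other library, and the other 7 libraries lie at 0.15 to 0.25 from each other. Among those 7, isolated pairs lie at 0.17, joined pairs at 0.15 to 0.23 and mixed pairs at 0.17 to 0.25.

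The first principal component of the 8 libraries held 29.7% of the variance and set isolated replicate 3, at 108, apart from the other 7, at -50.9 to 2.93. On the second component (15.2%) joined libraries lay at 56.2, -17.2, 37.6 and -8.22, and isolated libraries at -45.9, 7.77, -4.00 and -26.2. Their ranges overlapped. The median SD of a transcript within a group was 0.28 log2 CPM in joined worms and 0.30 in isolated worms, or 0.24 in isolated worms without replicate 3. In that library 321 of the 13744 transcripts lay more than 2-fold below the mean of the other 3 isolated libraries, and 34 lay more than 2-fold above it.

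Library-level values gave no difference past the threshold either. Joined libraries held 8235280 ± 1032340 estimated reads and isolated libraries 8003369 ± 505518. Here and below, means are followed by their SD over the 4 libraries of a group (n = 4 each). Transcripts with at least 1 estimated read numbered 65511, 65555, 65569 and 64847 in joined libraries, against 64200, 65016, 61320 and 63972 in isolated libraries. Joined replicate 4 lay below isolated replicate 2, the other joined libraries lay above all isolated ones, and the difference in means was 1743.5 transcripts (exact permutation test, two-sided, p = 0.0571, adjusted p = 0.229 over 4 library-level values). The smallest p that 4 against 4 libraries allow is 0.0286. Without isolated replicate 3, the lowest of the 8, the difference was 974.5. With every library thinned to the smallest total the difference was 1575 (exact permutation test, p = 0.114, not adjusted). Joined replicate 3, the library with the most reads, then held 63761 transcripts, below isolated replicates 2 and 4 at 64490 and 64024.

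RNA815_80.1 was the most abundant transcript. Between 13.4% and 21.4% of the reads of joined libraries fell on it, against 14.7% to 21.5% of the reads of isolated libraries. The mean share was 18.2% ± 3.43 in joined worms, against 19.3% ± 3.13 in isolated worms, and the difference did not pass (exact permutation test, p = 0.543). The 100 most abundant transcripts together took 37.7% ± 2.13 of the reads in joined and 39.1% ± 2.08 in isolated worms (exact permutation test, p = 0.371).

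RNA815_34533.2, on the lower side in joined worms, had the smallest p of all tested transcripts. Its level was 47.2, 68.9, 75.9 and 65.1 CPM in joined libraries, against 113, 142, 172 and 130 CPM in isolated libraries. Every joined library lay below every isolated one, and the log2 fold change was -1.12 with a standard error (SE) of 0.21 (limma-voom, adjusted p = 0.739). The other transcript of the same number, RNA815_34533.1, was more abundant, at 214, 227, 287 and 245 CPM in joined libraries, against 450, 488, 546 and 426 CPM in isolated libraries. Again no joined library reached the isolated range, with a log2 fold change of -0.97 (SE 0.21, adjusted p = 0.739, limma-voom). Summed over both transcripts, the number stood at 308 ± 42.3 CPM in joined and 617 ± 75 CPM in isolated worms, and RNA815_34533.2 made up 20.9% of it in joined and 22.6% in isolated worms. The summed number did not pass the test either (log2 fold change -1.01, SE 0.20, limma-voom adjusted p = 0.70 over numbers). As reads were divided between them by estimation, their values are not independent.

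RNA815_23273 had 113, 134, 129 and 133 CPM in joined libraries, against 227, 195, 203 and 208 CPM in isolated libraries. The 2 ranges were separated by more than the spread within either group, and the log2 fold change was -0.71 (SE 0.15, adjusted p = 0.739, limma-voom). RNA815_34533.1, RNA815_34533.2 and RNA815_23273 were called lower when the spread was estimated from the 8 joined and isolated libraries alone, with adjusted p of 0.0041, 0.0173 and 0.026 in limma-voom. They were the only transcripts called in that fit, in which 2923 of 37387 transcripts (7.82%) had an unadjusted p under 0.05. Over the 8 ways of leaving 1 library out of that smaller fit, RNA815_34533.1 was called in 8, RNA815_34533.2 in 4 and RNA815_23273 in 1. In the fit to all 16 libraries none of them was called, with or without any 1 of the 8 libraries.

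In these transcripts the octet and paired means lay below the joined mean. RNA815_34533.1 was at 194 ± 38.0 CPM in octet, 166 ± 69.8 CPM in paired and 243 ± 31.9 CPM in joined worms, against 478 ± 52.2 CPM in isolated worms. RNA815_34533.2 was at 20.1 ± 6.83, 40.3 ± 12.3 and 64.3 ± 12.2 CPM in octet, paired and joined worms, against 139 ± 24.7 CPM in isolated worms. RNA815_23273 was at 94.8 ± 23.1, 81.7 ± 14.0 and 127 ± 9.57 CPM in octet, paired and joined worms, against 208 ± 13.5 CPM in isolated worms. All 3 were lower in octet and in paired worms than in isolated worms, with limma-voom adjusted p of 0.000168 or less, and those comparisons share the isolated libraries. Of the 3, only RNA815_23273 differed between joined and paired worms, with a log2 fold change of 0.65 (SE 0.16, limma-voom adjusted p = 0.0168). The log2 fold changes of RNA815_34533.1 and RNA815_34533.2 from paired worms were 0.65 and 0.70, with adjusted p of 0.0865 and 0.0625.

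**Figure D3:**
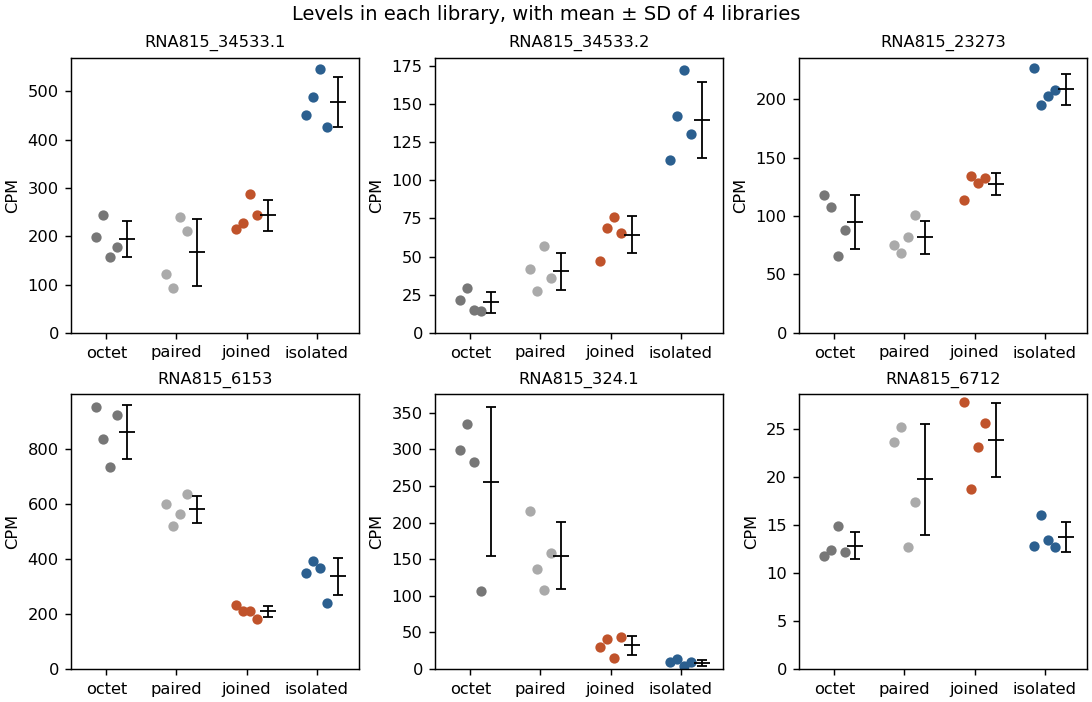
Points are the levels in CPM of 6 named transcripts in each of the 4 libraries of the octet, paired, joined and isolated groups, and bars give the mean and SD. In RNA815_34533.1, RNA815_34533.2 and RNA815_23273 all joined libraries lie below all isolated ones, on the side of the constant-company groups, while in RNA815_6153 they lie below all libraries of the other 3 groups.

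In 5 of the 8 lower transcripts with the smallest p the joined mean was the lowest of the 4 group means, namely RNA815_6153, RNA815_11111.1, RNA815_15968, RNA815_19701 and RNA815_17246. The 8 were chosen for a low joined level against isolated worms, which favours a lowest joined mean. The share of all tested transcripts with a lowest joined mean was not counted. RNA815_6153 had 234, 211, 211 and 181 CPM in joined libraries, against 350, 391, 369 and 239 CPM in isolated libraries. Isolated replicate 4 lay close to the joined range, yet no library overlapped, and the log2 fold change was -0.67 (SE 0.14, adjusted p = 0.739, limma-voom). In constant company the same transcript stood at 863 ± 98.0 CPM in octet and 580 ± 50.6 CPM in paired worms. Those levels were higher than in isolated worms by log2 fold changes of 1.37 (adjusted p = 5.95e-07) and 0.80 (adjusted p = 0.00228). RNA815_11111.1 had the same order of group means, with 69.6, 70.2, 71.1 and 71.3 CPM in joined libraries, against 93.0, 103, 108 and 102 CPM in isolated libraries. Its joined libraries varied by under 2 CPM, and the octet and paired means were 210 ± 28.3 and 155 ± 24.4 CPM. The log2 fold change between joined and isolated worms was -0.52 with a standard error of 0.13 (adjusted p = 0.831, limma-voom). Both transcripts were lower in joined than in paired worms (log2 fold changes -1.47 and -1.12), with limma-voom adjusted p of 9.38e-07 and 8.23e-06. Those values share the joined libraries with the comparison to isolated worms.

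RNA815_15968 was at 9.24, 9.05, 9.92 and 9.14 CPM in joined libraries, against 13.8, 16.0, 13.6 and 15.3 CPM in isolated libraries. The groups did not overlap, and the fitted log2 value was -0.64 (SE 0.16). Paired worms, at 14.2 ± 1.81 CPM, were near the isolated level, and the fold change of joined against paired worms passed the test (log2 fold change -0.59, limma-voom adjusted p = 0.033). RNA815_19701 stood at 24.0 ± 2.46 CPM in joined and 35.3 ± 3.90 CPM in isolated worms (log2 fold change -0.55, SE 0.14). In constant company RNA815_19701 was at 33.7 ± 4.70 CPM in octet and 27.9 ± 3.38 CPM in paired worms, and the joined level did not differ from the paired level past the threshold (limma-voom adjusted p = 0.416). RNA815_32394 stood at 12.7 ± 3.31 CPM in joined and 20.9 ± 3.96 CPM in isolated worms (log2 fold change -0.74, SE 0.18). In constant company RNA815_32394 was lower still, at 2.74 ± 0.40 CPM in octet and 6.80 ± 1.26 CPM in paired worms.

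RNA815_17246 showed the widest difference of the 8 lower transcripts with the smallest p, a log2 fold change of -1.30 (SE 0.29, adjusted p = 0.740, limma-voom). Its joined libraries were at 12.3, 5.79, 5.10 and 5.46 CPM, against 18.3, 15.4, 17.9 and 13.9 CPM in isolated libraries. Joined replicate 1 stood apart from the other joined libraries and close to the lowest isolated one. Octet and paired worms were at 10.7 ± 5.97 and 8.36 ± 2.38 CPM, and the joined level did not differ from the paired level past the threshold (limma-voom adjusted p = 0.654). In the fit to the 8 joined and isolated libraries RNA815_17246 had an adjusted p of 0.124. It was called in 1 of the 8 fits that leave out 1 library, the one without joined replicate 1 (log2 fold change -1.58, adjusted p = 0.0126). RNA815_17246 was also called in the 8-library fit with a term for the replicate number (limma-voom, log2 fold change -1.25, adjusted p = 0.000272). That fit was added after the data were seen.

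RNA815_324.1 gave the largest difference among transcripts higher in joined worms with at least 3 log2 CPM and no overlap. Its level was 29.4, 41.0, 14.6 and 43.4 CPM in joined libraries, against 9.16, 13.2, 3.45 and 8.83 CPM in isolated libraries. The lowest joined library, replicate 3, lay just above the highest isolated one. The log2 fold change was 1.92 (SE 0.42), with a 95% interval of 1.04 to 2.80 (adjusted p = 0.739, limma-voom). RNA815_324.2, of the same number, was also above its isolated range in all 4 joined libraries, at 4.82 ± 1.73 CPM in joined and 1.86 ± 1.09 CPM in isolated worms. The number as a whole stood at 37.2 ± 14.6 CPM in joined and 10.6 ± 5.03 CPM in isolated worms. RNA815_324.1 was far more abundant in constant company, at 256 ± 102 CPM in octet and 155 ± 45.5 CPM in paired worms, and the joined level was below the paired level (log2 fold change -2.35, SE 0.35, limma-voom adjusted p = 0.000264). In the fit to the 8 joined and isolated libraries RNA815_324.1 had an adjusted p of 0.225. It was called in 1 of the 8 fits that leave out 1 library, the one without joined replicate 3, its lowest joined library (log2 fold change 2.27, adjusted p = 0.0124). RNA815_324.1 was also called in the 8-library fit with a term for the replicate number (limma-voom, log2 fold change 1.90, adjusted p = 6.84e-09). That fit was added after the data were seen.

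The other 7 of the 8 higher transcripts with the smallest p had log2 fold changes of 0.55 to 0.78. RNA815_17316 had 13.5, 12.9, 15.2 and 15.4 CPM in joined libraries, against 7.16, 10.3, 8.92 and 7.87 CPM in isolated libraries, a log2 fold change of 0.74 (SE 0.16). The joined level was close to that of constant company, at 17.1 ± 1.48 CPM in octet and 17 ± 2.98 CPM in paired worms, and both differed from isolated worms (limma-voom adjusted p = 0.000165 and 0.00118). RNA815_3916 had 27.5, 21.1, 26.4 and 30.5 CPM in joined libraries, against 17.6, 18.4, 18.1 and 17.3 CPM in isolated libraries. Its isolated libraries were nearly identical, and all joined ones lay above them. Octet and paired worms were at 33.4 ± 1.06 and 32.3 ± 5.29 CPM.

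RNA815_6712 and RNA815_5403 had their highest group mean in joined worms, as did RNA815_18437 and RNA815_36605, described below. These transcripts were chosen for a high joined level against isolated worms, which favours a highest joined mean. RNA815_6712 had 27.9, 18.8, 23.1 and 25.6 CPM in joined libraries, against 12.8, 16.0, 13.4 and 12.7 CPM in isolated libraries, and RNA815_5403 had 65.2, 49.0, 50.7 and 56.9 CPM in joined libraries, against 29.8, 37.6, 32.9 and 34.6 CPM in isolated libraries. No libraries overlapped in either, and the log2 fold changes were 0.78 and 0.71, with standard errors of 0.19 and 0.18. Octet worms were at 12.8 ± 1.41 and 25.7 ± 3.56 CPM and paired worms at 19.8 ± 5.81 and 47.9 ± 14.6 CPM. The octet level was below the joined level in both, with log2 fold changes of -0.88 and -1.11 (limma-voom adjusted p = 0.00125 and 0.000128), while neither octet nor paired worms differed from isolated worms past the threshold.

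RNA815_18437 stood at 19.2 ± 1.63 CPM in joined and 12.0 ± 1.55 CPM in isolated worms, RNA815_5619.1 at 20.2 ± 4.76 and 12.3 ± 2.00 CPM, and RNA815_36605 at 13.9 ± 2.52 and 8.60 ± 1.94 CPM. In octet and paired worms RNA815_18437 was at 16.3 ± 4.44 and 17.9 ± 3.33 CPM. RNA815_5619.1 was there at 14.5 ± 1.67 and 20.8 ± 3.72 CPM, and RNA815_36605 at 11.3 ± 1.29 and 12.7 ± 1.14 CPM. RNA815_36605 was the 1 of these 16 transcripts in which a joined library, at 10.6 CPM, lay inside the isolated range. Since the 16 were chosen for a small p in this contrast, their lack of overlap, in 15 of 16 against 4.04% of all tested transcripts, is a description.

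**Figure D4:**
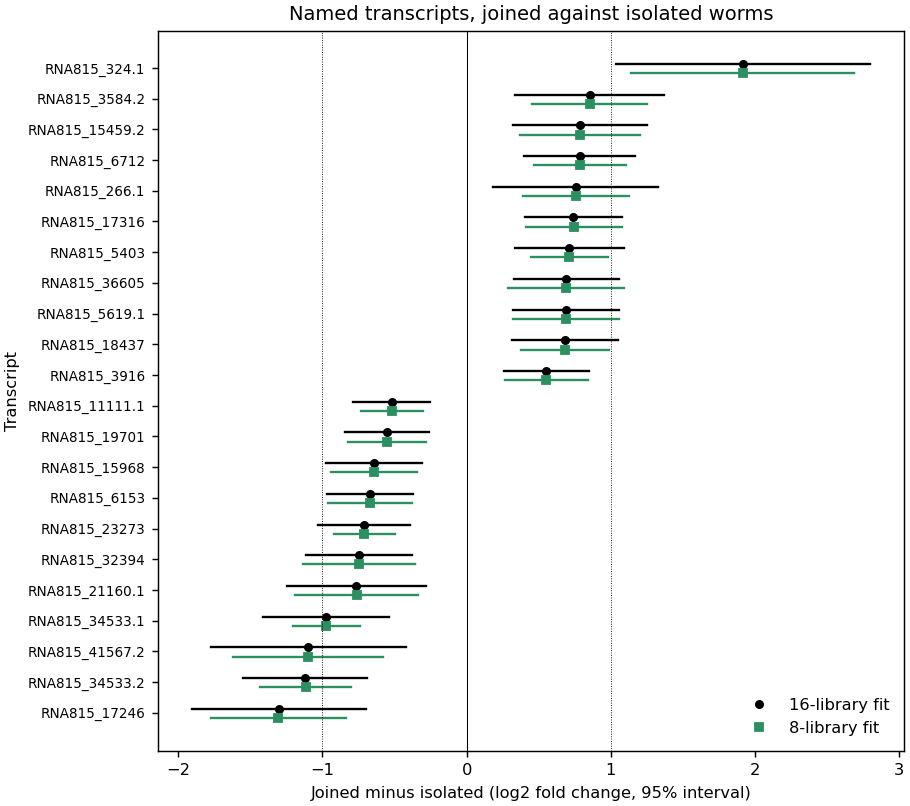
Log2 fold changes, joined minus isolated, with 95% intervals for 22 named transcripts, from the fit to all 16 libraries (circles) and from the fit to the 8 joined and isolated libraries (squares), and dotted lines at 2-fold. The estimates of both fits nearly coincide, the intervals of RNA815_34533.1 and RNA815_23273 are narrower in the 8-library fit, and RNA815_324.1 is the transcript whose intervals lie wholly beyond 2-fold.

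Beyond these, the largest differences without overlap at 3 log2 CPM or more were in RNA815_3584.2, RNA815_15459.2 and RNA815_266.1 on the higher side, with log2 fold changes of 0.85, 0.78 and 0.76 and standard errors of 0.25, 0.22 and 0.28. RNA815_266.1 had 30.4, 19.8, 30.2 and 20.4 CPM in joined libraries, against 12.7, 18.0, 13.3 and 15.2 CPM in isolated libraries. On the lower side RNA815_41567.2 had 17.7, 10.7, 15.3 and 19.9 CPM in joined libraries, against 38.9, 20.8, 53.8 and 27.7 CPM in isolated libraries, a log2 fold change of -1.10 (SE 0.33). Isolated replicate 3 was the highest and isolated replicate 2 almost reached the joined range. RNA815_41567.2 is a minor member of its number, which stood at 212 ± 26.1 CPM in joined and 271 ± 52.8 CPM in isolated worms. RNA815_21160.1 was at 4.87 ± 0.95 CPM in joined and 8.29 ± 1.77 CPM in isolated worms. In constant company RNA815_21160.1 was at 14.1 ± 4.33 CPM in octet and 10.8 ± 1.86 CPM in paired worms, and the joined level was below the paired level (log2 fold change -1.14, limma-voom adjusted p = 0.00425).

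Of the transcripts with at least 3 log2 CPM, 3 higher and 4 lower ones had a fitted difference above 2-fold. Beside RNA815_324.1, the higher ones were RNA815_2035.2 and RNA815_7654.2, in which the groups overlapped. RNA815_2035.2 was listed at 18.6, 74.7, 86.8 and 63.5 CPM in joined libraries, against 6.40, 0, 65.4 and 93.2 CPM in isolated libraries. The number it belongs to stood at 172 ± 30.8 CPM in joined and 180 ± 80.2 CPM in isolated worms, and the log2 fold change was 2.89 for the transcript and 0.03 for the number. The value for RNA815_2035.2 ran from 0.64 to 4.04 over the alternatives, with the lowest value without isolated replicate 2, the library listed at 0, and none of them called it. The 4 lower ones were RNA815_17246, RNA815_34533.2, RNA815_41567.2 and RNA815_8767. RNA815_8767, named after its values were seen, had 11.0, 20.0, 29.6 and 9.90 CPM in joined libraries, against 35.2, 44.5, 37.7 and 22.2 CPM in isolated libraries, with 1 joined library inside the isolated range.

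The most abundant transcripts did not differ past the threshold. RNA815_46233, the 1 with the largest difference among the 6 most abundant, had 6277, 3507, 8259 and 6756 CPM in joined libraries, against 7634, 9219, 15666 and 8942 CPM in isolated libraries. Joined replicate 3 exceeded isolated replicate 1, and the log2 fold change was -0.75 (SE 0.22, adjusted p = 0.831, limma-voom). It was also lower than in isolated worms in constant company, at 4156 ± 858 CPM in octet and 5202 ± 612 CPM in paired worms (limma-voom adjusted p = 0.000313 and 0.0234). RNA815_123.1 and RNA815_92.1 were on the higher side in joined worms, with log2 fold changes of 0.28 and 0.33 and standard errors of 0.37 and 0.36. RNA815_3057.4 and RNA815_3057.3, of 1 number, were on the lower side, at -0.40 and -0.32 with standard errors of 0.20 and 0.21.

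Some transcripts had reads in 1 of the groups and none in the other, and those with the most reads were scarce. Of all 76437 transcripts listed, a set of 80 had at least 1 read in all 4 joined libraries and 0 reads in all 4 isolated ones, and 16 had the reverse pattern. Joined libraries also listed more transcripts in general, and the part of that in these counts was not tested. RNA815_9784.4 had the most reads of the 80, with 0.38, 2.17, 3.49 and 3.68 CPM in joined libraries. Its joined mean was 25.4-fold above a floor of 3 reads over the 4 isolated libraries. The fitted 95% interval of the fold change ran from 5.50 to 175 (limma-voom, adjusted p = 0.831). Its number as a whole, with 4 transcripts, stood at 96.6 ± 7.76 CPM in joined and 115 ± 3.85 CPM in isolated worms. RNA815_47397 has a number of its own and had 1 to 6 reads in joined libraries, with a mean 3.73-fold above the same floor. In the reverse direction RNA815_61610 had 2 to 4 reads in isolated libraries and 0 in joined ones. Its isolated mean was 4.02-fold above a floor of 3 reads over the 4 joined libraries. RNA815_8313.3 had 1.4 to 6.9 estimated reads in isolated libraries, with a mean 4.27-fold above that floor. These ratios of a mean to a floor are not bounds on the fold change. RNA815_16601.1, named after its values were seen, had 0, 1.69, 0 and 1.27 CPM in joined libraries, against 3.52, 4.65, 2.02 and 6.35 CPM in isolated libraries. The number of RNA815_16601.1 stood at 15.7 ± 1.76 CPM in joined and 19.6 ± 4.44 CPM in isolated worms. RNA815_16601.1, RNA815_9784.4 and RNA815_324.1 were the 3 transcripts whose 95% interval lay wholly beyond 2-fold, and in RNA815_16601.1 and RNA815_9784.4, with libraries at 0 reads, that interval depends on the pseudocount.

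A last set of 8 transcripts was taken for large differences between constant company and isolation, with earlier results of these data known. In RNA815_324.1 and RNA815_34533.1 the joined libraries did not overlap the isolated ones, and in the other 6 they did. RNA815_29683.1 had 2.03, 3.14, 1.32 and 3.68 CPM in joined libraries, against 2.51, 1.81, 0.713 and 1.38 CPM in isolated libraries. Octet and paired worms averaged 60.4 ± 20.1 and 30.5 ± 14.5 CPM. RNA815_38273 had 1.77, 4.95, 1.79 and 3.55 CPM in joined libraries, against 2.13, 2.84, 1.19 and 1.66 CPM in isolated libraries. The groups overlapped in both. RNA815_9549.3 had 10.0, 16.3, 7.27 and 12.9 CPM in joined libraries, against 16.7, 12.0, 8.92 and 10.9 CPM in isolated libraries, with a 95% interval of -0.72 to 0.51 for the log2 fold change. RNA815_21158.1 had 348, 403, 608 and 806 CPM in joined libraries, against 479, 450, 813 and 833 CPM in isolated libraries, with a 95% interval of -0.93 to 0.38. RNA815_21158.2 had 127, 128, 219 and 253 CPM in joined libraries, against 179, 144, 266 and 260 CPM in isolated libraries, and RNA815_9549.1 had 14.7, 20.3, 7.74 and 21.3 CPM, against 21.6, 17.8, 9.99 and 10.5 CPM. Constant company stood elsewhere: RNA815_21158.1 was at 32.8 ± 19.4 CPM in octet and 25.9 ± 8.84 CPM in paired worms, and RNA815_9549.3 at 395 ± 99.0 and 154 ± 56.0 CPM.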

How the data were processed

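The deposited table holds estimated counts per transcript for 16 libraries, as the authors deposited them, with a decimal comma and no scaling for depth. Single-end reads of 100 bp were made after TRIzol extraction, with Illumina's mRNA library protocol per the labels. Bowtie 0.12.7 and RSEM 1.1.19 are named in the submitters' processing notes, and the column of transcript numbers is headed MLRNA110815 per the file headers. Joined and isolated libraries held 7302416 to 9758050 estimated reads. Estimated counts were rounded. Transcripts were kept at 1.26 CPM or more in at least 4 libraries with a sum of at least 15, leaving 40265 of 76437, which held 98.8% to 99.1% of the reads of the 8 libraries. TMM factors were written out (trims of 30% and 5%), and CPM values use the sizes after TMM.

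limma-voom (limma 3.58.1, R 4.3.3, pseudocount 0.5) was fitted to all 16 libraries with the 4 groups as terms. Adjusted p-values are Benjamini-Hochberg over all tested transcripts, threshold 0.05, two-sided. Count models were not used, because the check of units applied here did not read values with decimal commas as numbers. This is a limit of that check and not of the values, which were read as numbers and rounded. The scripts were tested on simulated data. Pairs of replicates differed by more than sampling noise (chi-square per degree of freedom 2.76 to 10.9).

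Named transcripts were, at 3 log2 CPM or more, the 8 higher and 8 lower with the smallest p (1 per number) and the 3 and 3 with the largest fold and no overlap; the 6 most abundant; 2 and 2 detected in 1 group only; those called in the 8-library fit; those in which isolated replicate 3 stood apart; and 8 known from earlier results of these data to differ in constant company. The level of 3 log2 CPM is a mean over all 16 libraries, so some named transcripts reached it through octet and paired worms. The members and rules were chosen with earlier results of these data known. No gene list could be applied, since the table pairs no gene names with its numbers. Alternatives covered scaling, filters, rounding, the model, library weights, the replicate block, summed numbers and leaving out libraries.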

Additional observations from a re-analysis of the deposited data

Results flagged for a closer look

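In 92 groups of 4 libraries looked at, 2 libraries lay far from the other 3 of their group by Dixon's criterion, which flags about 1 group in 20 by chance. Joined replicate 4 held 64847 transcripts with at least 1 read, against 65511 to 65569 in the other joined libraries. RNA815_17246 stood at 12.3 CPM in joined replicate 1, against 5.10 to 5.79 CPM in the other joined libraries.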

How the results depend on the processing

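The count of called transcripts stayed at 0 in the 16-library fit under every alternative run, including each of the 8 libraries left out, both other scalings, both other filters, limma-trend, library weights, summed numbers and a threshold of 0.1. The smallest adjusted p there ran down to 0.0756 with library weights and 0.0816 with the replicate block. The 8-library fit called 3 transcripts, and further fits to those 8 libraries, added after the data were seen, called 5 with library weights, 67 (37 higher, 30 lower) with the replicate block and 1 (without joined replicate 2 or 4 or isolated replicate 2) to 7 (without isolated replicate 4) with 1 library left out. The 67 included RNA815_34533.1, RNA815_34533.2, RNA815_23273, RNA815_6153, RNA815_17246, RNA815_324.1, RNA815_6712 and RNA815_5403. RNA815_3584.2, RNA815_266.1, RNA815_41567.2, RNA815_46233, RNA815_8767, RNA815_1838.3 and RNA815_16601.1 were among them too. The 8-library fit with the replicate block leaves few degrees of freedom, so its p-values rest largely on the spread estimated over all transcripts. The replicate numbers were not taken to pair the libraries. Same-numbered joined and isolated libraries had correlated deviations of -0.10 to 0.19, over 0.1 in 1 of 4 pairs. Pairs with other numbers had -0.32 to 0.18, over 0.1 in 4 of 12 pairs. The running numbers in the column headers go through the 4 groups within each replicate number. These correlations cannot decide whether the replicates were handled as blocks. The count at an unadjusted p under 0.05 was 4335 of 74197 with no filter, where more transcripts were tested.

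The difference in transcripts with reads ran from 974.5 to 2206.5 with 1 library left out, and its p, not adjusted over the 4 library-level values, was 0.0286 (exact permutation test) without isolated replicate 2. The difference in the share of RNA815_80.1 ran from -2.64 to 0.49 percentage points and turned positive without joined replicate 3. Of 43 named transcripts run under up to 28 settings (RNA815_80.1 under 27, RNA815_9784.4 under 17), 4 changed sign in at least 1. With 1 library left out, RNA815_9549.1 ran from -0.13 to 0.38 in the 16-library and -0.14 to 0.39 in the 8-library fit, RNA815_9549.3 from -0.29 to 0.12 in both (0.062 and 0.064 without isolated replicate 1), RNA815_3057.5 from -0.55 to 0.17 in both, and RNA815_180 from -0.22 to 0.99 in the 16-library and 1.01 in the 8-library fit. RNA815_3057.5 and RNA815_180 turned without isolated replicate 3. With library weights RNA815_9549.1 was at -0.11 in the 16-library and -0.12 in the 8-library fit. Without a change of sign, RNA815_2035.2 ran from 0.64 to 4.04, RNA815_7654.2 from 0.31 to 1.59 and RNA815_24035 from 0.66 to 1.11. The cause was not tested. In scarce transcripts the intervals were widest.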

Other observations

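At 3 log2 CPM or more, RNA815_2035.2 and RNA815_3057.5 were the 2 transcripts in which isolated replicate 3 lay farthest above the mean log2 CPM of the other isolated libraries, and RNA815_7654.2 and RNA815_180 the 2 in which it lay farthest below. RNA815_180 was at 35.7, 26.8, 23.7 and 9.90 CPM in joined libraries, and at 2.97 CPM in isolated replicate 3, against 19.8, 35.4 and 23.3 CPM in the other isolated libraries. RNA815_7654.2 was at 3.21 to 11.3 CPM in joined libraries, and at 0.357 CPM in isolated replicate 3, against 4.39, 4.27 and 5.25 CPM in the others. RNA815_3057.5 was at 22.4, 32.4, 25.5 and 56.5 CPM in joined libraries, and at 93.6 CPM in isolated replicate 3, against 24.1, 45.1 and 20.8 CPM in the others. RNA815_2035.2 was at 65.4 CPM in isolated replicate 3, within the range of the other isolated libraries (6.40, 0 and 93.2 CPM).

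Among scarcer transcripts, below 3 log2 CPM and named after their values were seen, RNA815_1838.3 and RNA815_24035 had the smallest p. RNA815_1838.3 had 3.93, 9.41, 8.41 and 5.46 CPM in joined libraries, against 16.2, 18.6, 14.7 and 14.2 CPM in isolated libraries, a log2 fold change of -1.28 (SE 0.25, limma-voom adjusted p = 0.739). It was also lower than in isolated worms in octet worms, at 3.17 ± 1.37 CPM, and in paired worms, at 4.25 ± 1.77 CPM (limma-voom adjusted p = 9.73e-06 and 0.000115). RNA815_24035 had 4.43, 4.82, 4.06 and 5.46 CPM in joined libraries, against 2.26, 2.33, 2.14 and 2.21 CPM in isolated libraries, a log2 fold change of 1.03 (SE 0.21, adjusted p = 0.739). Its isolated libraries were almost identical, and octet and paired worms were at 3.49 ± 0.67 and 3.74 ± 0.45 CPM. Neither constant-company group differed from isolated worms in RNA815_24035 past the threshold (adjusted p = 0.0552 and 0.105).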
